A study of Homo sapiens with 6 samples.

Results

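Nucleotide excision repair and mismatch repair were followed through 33 genes that encode proteins of these pathways. The genes were chosen from a list of 33 symbols, with the requirement of at least 10 counts in 3 or more of the 6 libraries. All 33 listed genes met it, among 20127 that did so in a deposited table of 62754 genes, and all 33 were among the 19874 genes tested. HK-2, a cell line derived from human proximal tubule epithelium, was transfected with a control or a NAT10 siRNA and exposed to Cisplatin, and RNA was sequenced to ask which mRNAs differ when NAT10 is silenced. CP+siNC denotes cells given Cisplatin and the negative control siRNA, and CP+siNAT10 denotes cells given Cisplatin and the siRNA against NAT10, with 3 libraries in each group. The study's methods name 20 μM Cisplatin for 24 hours for experiments in these cells, while the labels give neither dose nor time. Both groups received the drug and no library without it was analysed, so the response to Cisplatin itself cannot be read from these data, and all CP+siNAT10 libraries carry the label of a single siRNA treatment.

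Nucleotide excision repair removes bulky lesions from DNA, including the intrastrand crosslinks that Cisplatin leaves between neighbouring purines. The lesion is found either anywhere in the genome or by a stalled RNA polymerase, the helix is opened by the TFIIH complex, the damaged strand is cut on both sides, and the gap is filled and sealed. Mismatch repair proteins recognise mispaired bases after replication and also bind Cisplatin crosslinks, and proximal tubule cells take up this drug from the blood.

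The total counts were 19321665, 21602988 and 19464027 in the CP+siNC libraries and 20793709, 21531774 and 25192736 in the CP+siNAT10 libraries. Among the 33 repair genes the count in a single library ran from 159 to 6626, which is one part of the precision of each gene. Levels are given as CPM, counts per 1e6 of the TMM-scaled library size, and are not comparable between genes of different length. A log2 fold change is the difference of CP+siNAT10 from CP+siNC, so a value above 0 means a higher level after NAT10 silencing. The labels do not state that the replicates were separate cultures, so the p-values measure the spread between these libraries, which may be technical. Pairs of libraries within a group differed by a chi-square per gene of 1.74 to 2.55, where counting noise gives about 1, and no pair was close enough to be a repeat of the same library.

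Markers were checked against the cell label. Of 10 proximal tubule markers 5 were expressed enough to be tested, with PAX8 the most abundant on the mean of all 6 libraries at 30.1, 32.8 and 31.4 CPM in CP+siNC and 42.4, 51.2 and 48.1 CPM in CP+siNAT10, while SLC22A6 was at 0 in every library and LRP2, CUBN, SLC34A1 and ANPEP had under 10 counts in each. The summed proximal tubule markers were higher in every silenced library, at 85.2, 89.0 and 85.2 CPM in CP+siNC and 92.1, 99.2 and 97.6 CPM in CP+siNAT10. The 6 epithelial markers summed to 2097, 2118 and 2065 CPM in CP+siNC and to lower values in all silenced libraries, 2006, 1989.8 and 2019 CPM. Of these KRT18 and KRT7 were lower and EPCAM was higher in every silenced library, while the groups overlapped for KRT8 and KRT19. The keratin KRT8 was at a mean of 1452 CPM, and CDH1, the gene of E-cadherin, had at most 2 counts. All 5 endothelial markers were too low to be tested. Of 6 fibroblast markers 3 were tested, COL1A1 being the most abundant at 12.1 CPM, and their summed level was 22.1, 23.6 and 21.9 CPM in CP+siNC and 23.4, 30.2 and 24.5 CPM in CP+siNAT10. The 6 blood and macrophage markers summed to 209.8, 199 and 217 CPM in CP+siNC and to 289, 266 and 269 CPM in CP+siNAT10, nearly all of it CD68, which encodes a lysosomal membrane protein. HBB was at 0 in all libraries, LYZ had at most 3 counts, and CD14, PTPRC and CD3E had means of 1.06, 0.621 and 0.292 CPM. The part of these markers in the results on repair genes was not tested.

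NAT10 (ENSG00000135372), the gene of an RNA cytidine acetyltransferase, lies on chromosome 11 from 34105617 to 34147670 and was the target of the siRNA. Its level was 75.8, 71.4 and 73.2 CPM in the CP+siNC libraries and 41.3, 40.5 and 42.4 CPM in the CP+siNAT10 libraries. The libraries labelled as silenced were all below the controls, with no overlap. Means with SD over 3 libraries were 73.5 ± 2.25 and 41.4 ± 0.963 CPM, so the silenced level is 56.4% of the control level. The log2 fold change was -0.82 (standard error 0.0426, adjusted p = 2.79e-15). In these bulk samples, fewer cells that express a gene and less of its RNA per cell cannot be told apart.

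Of the 33 repair genes, 19 had an adjusted p under 0.05 (Benjamini-Hochberg, over all 19874 genes) by the quasi-likelihood test of edgeR, which is 57.6% against 44.1% of all tested genes. With NAT10 siRNA 10 were higher, or 30.3% against 21.8% of all genes, and 9 were lower, or 27.3% against 22.3%. When only library size was used for scaling, 11 rose and 6 fell, but calls over all genes shifted the same way, to 5050 higher and 3786 lower. Among the 9698 tested genes within the range of mean levels spanned by the repair genes, 9.07 to 242 CPM, 60.5% passed, 30.7% higher and 29.8% lower, so the share among the repair genes was near that of genes with similar levels. The changes were small. The log2 fold changes ran from -0.37 to 0.40, the median was 0.0014 against 0.0070 for all genes, and the median size regardless of sign was 0.17 against 0.21 for all genes and 0.17 for those of similar levels. No repair gene had an adjusted p under 0.05 together with a log2 fold change over 1 in size, a pair of limits that 2.33% of all genes and 1.00% of those of similar levels passed by edgeR. In 21 of the 33, or 63.6% against 51.4% of all genes and 65.7% of those of similar levels, the values of the groups did not overlap, 11 with every CP+siNAT10 library above and 10 with every one below. When the change itself was tested against 1.2-fold with edgeR's glmTreat, 3 repair genes passed, or 9.09% against 14.6% of all genes and 18.0% of those of similar levels. They are GTF2H1 (adjusted p = 0.0180) and GTF2H3 (adjusted p = 0.0293) higher and EXO1 (adjusted p = 0.00920) lower. The summed level of the 33 genes was 2388, 2360.5 and 2358 CPM in CP+siNC and 2349.9, 2347 and 2346 CPM in CP+siNAT10.

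**Figure D1:**
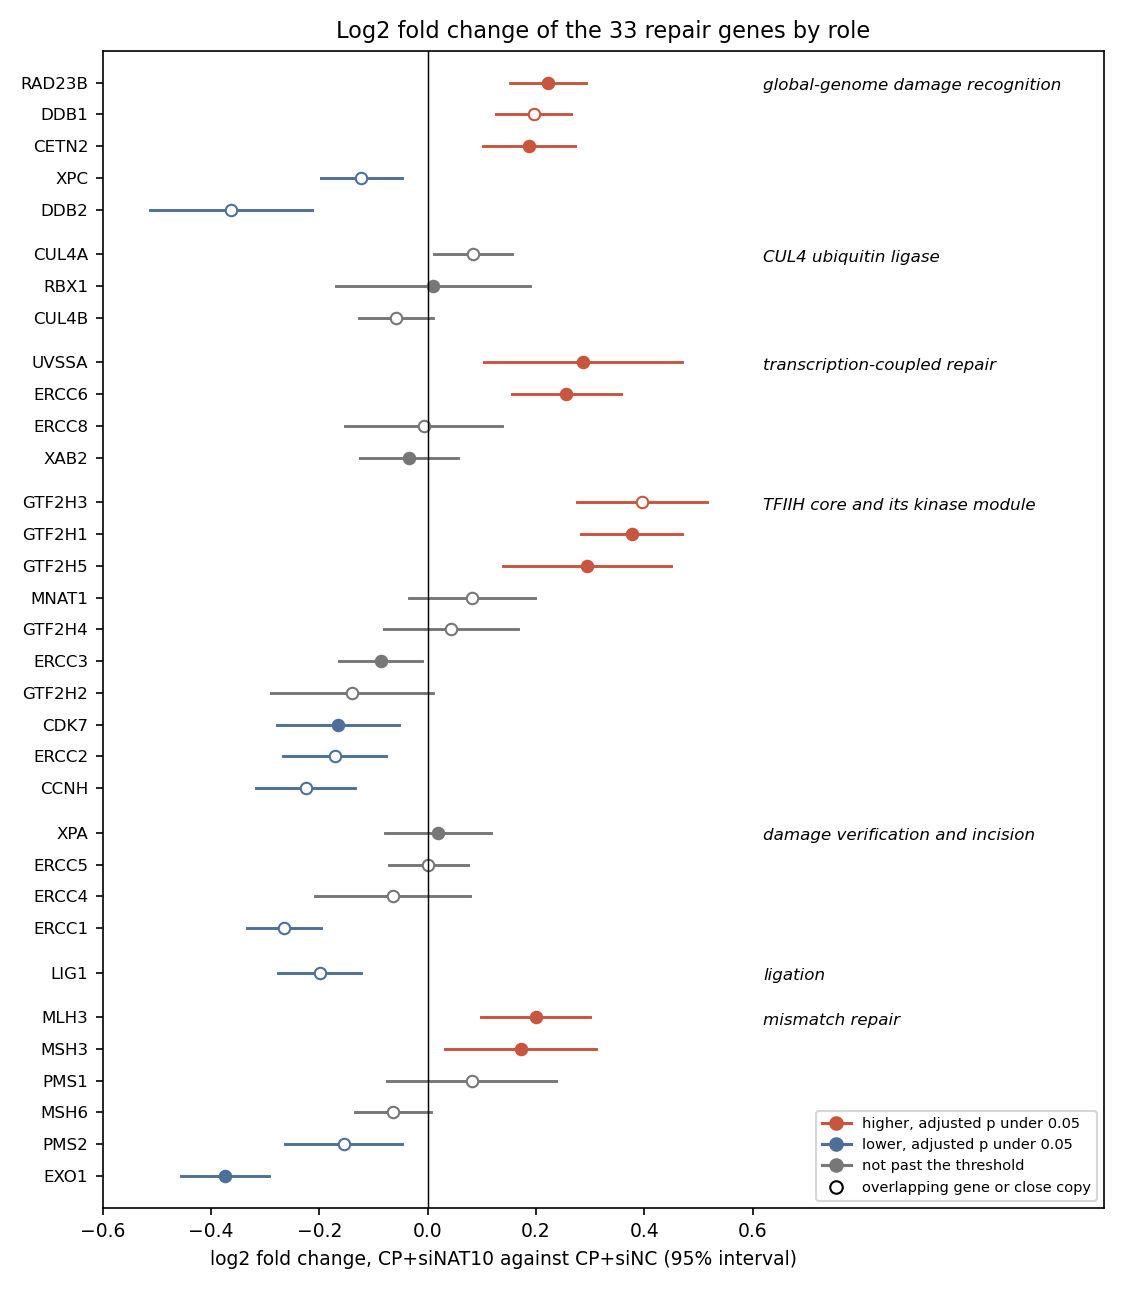
Log2 fold change of CP+siNAT10 against CP+siNC with its 95% interval for each of the 33 repair genes, ordered by role, with red for higher and blue for lower at an adjusted p under 0.05 and grey for the others. Open circles mark the 19 genes with an overlapping tested gene or a near-identical copy, and the estimates lie between -0.37 for EXO1 and 0.40 for GTF2H3.

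Reads could be shared with neighbouring genes. The spans of 17 of the 33 genes in the deposited table overlap another tested gene, 5 of them on the same strand and 12 on the opposite strand only. GTF2H2 and PMS2 also have near-identical copies elsewhere. The kit marks the strand, but the strand setting used in counting is not given in the sources used here, so the levels of these 19 genes are uncertain. Among the 14 genes without such a neighbour or copy, 10 passed, 8 higher and 2 lower, with a median log2 fold change of 0.18. The 19 others had 2 higher, 7 lower and a median of -0.064. Over all tested genes, 20.1% of the 11883 with an overlapping tested gene were higher and 21.2% lower, against 24.4% and 24.1% of the 7991 with none. Whether shared reads have a part in the split among the repair genes was not tested.

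The 12 genes described by library as the largest changes were those with the largest log2 fold change in size among the repair genes that passed and whose groups did not overlap. In 7 of them every CP+siNAT10 library was above the controls and in 5 every one was below.

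**Figure D2:**
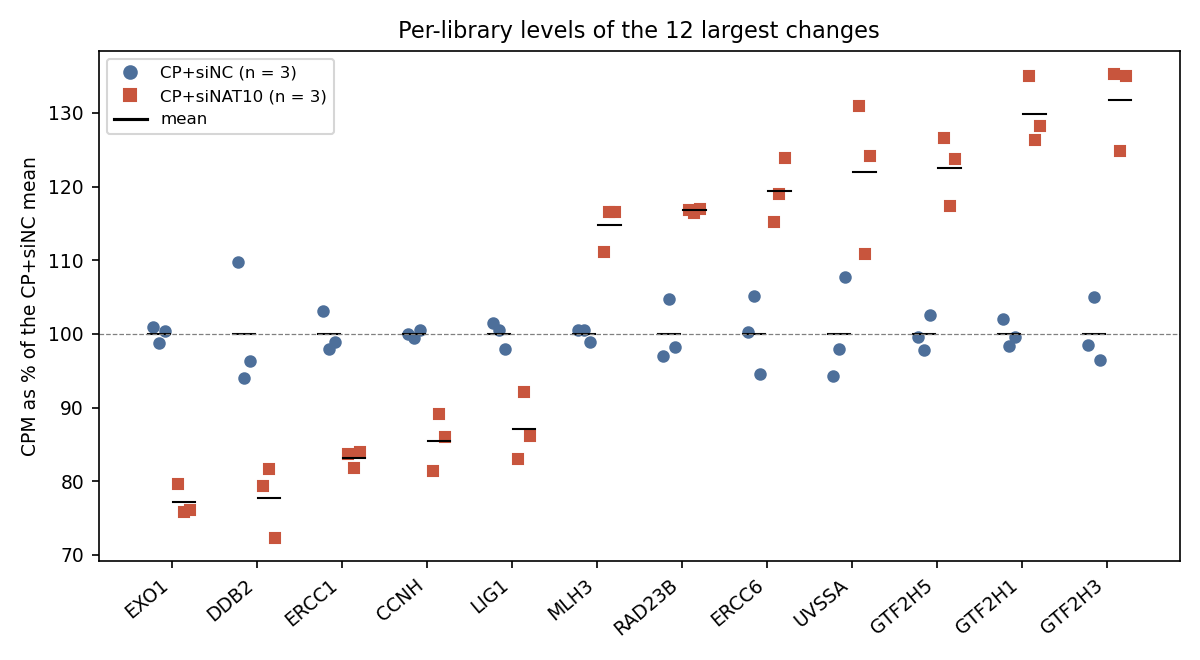
Level of these 12 genes in each library as a percentage of the mean of the CP+siNC libraries, with circles for CP+siNC, squares for CP+siNAT10 and short lines for the means of 3 libraries. The squares lie below all circles for EXO1, DDB2, ERCC1, CCNH and LIG1 and above them for the other 7 genes.

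Lesions in untranscribed DNA are found by XPC with its partners RAD23B and CETN2, helped by the UV-DDB complex of DDB1 and DDB2. All 5 of these recognition genes passed the test, 3 higher and 2 lower, where 44.1% of all genes and 60.5% of those of similar levels passed. The lesion-binding subunit gene DDB2 (ENSG00000134574, chromosome 11 from 47214465 to 47239217), which is also a known p53 target, was at 20.3, 17.4 and 17.8 CPM in CP+siNC and at 14.7, 15.1 and 13.4 CPM in CP+siNAT10. All silenced libraries were below the controls, and the control libraries were the more spread, with the first of them highest. Its log2 fold change was -0.36 (standard error 0.0729, adjusted p = 0.00015), and the mean was 77.8% of the control mean. XPC, whose protein binds the distorted helix and calls in TFIIH, and which is likewise a p53 target, was at 118, 117 and 118 CPM in CP+siNC and at 105, 113 and 108 CPM in CP+siNAT10. The controls lay close together and above the silenced libraries, of which the second came nearest to them. XPC changed less than DDB2, with -0.12 in log2 units (SE 0.0362, adjusted p = 0.00678), and did not pass with scaling by library size only (-0.085, adjusted p = 0.0605). XPC lies opposite the antisense gene XPC-AS1, which had 17.0% as many counts and a log2 fold change of -0.17.

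The partner that stabilises XPC moved the other way. RAD23B was at 217, 234 and 219.6 CPM in CP+siNC and at 261, 260.3 and 261 CPM in CP+siNAT10. The silenced libraries were nearly identical and above all controls, the second control being the nearest. For RAD23B the log2 fold change was 0.22 (SE 0.0342, adjusted p = 3.97e-06). CETN2, the gene of centrin 2, which binds XPC and also serves in centrosomes, rose from 98.3 ± 6.55 to 112 ± 3.59 CPM (SD, n = 3 per group, log2 fold change 0.19, adjusted p = 0.000494). DDB1, the adaptor that joins DDB2 to the CUL4 ubiquitin ligase, rose from 151 ± 4.14 to 173 ± 0.169 CPM (SD, n = 3 per group, log2 fold change 0.20, adjusted p = 1.97e-05). Corrected for gene length, its log2 fold change was 0.095 (adjusted p = 0.0231).

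The ligase that DDB1 and DDB2 belong to is built on CUL4A or CUL4B with the RING protein RBX1, and it ubiquitylates XPC and histones at lesions. None of the 3 genes passed the quasi-likelihood test of edgeR, against 44.1% of all genes. CUL4A had a log2 fold change of 0.084 (95% interval 0.011 to 0.16, adjusted p = 0.0571). It passed with scaling by library size only (0.12, adjusted p = 0.00684) and without CP+siNAT10 replicate 3 (0.11, adjusted p = 0.0268). Corrected for gene length, CUL4A was at 0.041 (adjusted p = 0.382). CUL4B was at -0.058 (95% interval -0.13 to 0.011), and with the correction for gene length at -0.21 (adjusted p = 5.75e-06). RBX1, measured from few counts, was at 0.0099 (95% interval -0.17 to 0.19). The CUL4B to CUL4A ratio of length-scaled counts was 0.316, 0.319 and 0.302 in CP+siNC and 0.272, 0.284 and 0.294 in CP+siNAT10. The ratio was lower in all silenced libraries, by 0.14 on the log2 scale, with an exact two-sided permutation p of 0.1, the smallest that 3 libraries against 3 allow. With the correction for gene length, which was added for the ratios after seeing the data, the difference was -0.25 (exact two-sided p = 0.1, the smallest possible).

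Transcription-coupled repair starts at a stalled RNA polymerase and uses ERCC6 and ERCC8, the Cockayne syndrome proteins CSB and CSA, with UVSSA and XAB2. In this group 2 of 4 genes passed, both higher, against 44.1% of all genes and 60.5% of those of similar levels. ERCC6, the ATPase that binds the stalled polymerase, was at 37.4, 39.2 and 35.3 CPM in CP+siNC and at 42.9, 44.4 and 46.2 CPM in CP+siNAT10. The groups did not overlap, and the gap between them was close to the spread within each. The log2 fold change was 0.26 (SE 0.0492, adjusted p = 8.97e-05) and became 0.13 (adjusted p = 0.0363) with the correction for gene length. UVSSA, which brings the protease USP7 and TFIIH to the stalled polymerase, was at 8.44, 8.78 and 9.66 CPM in CP+siNC and at 11.7, 9.93 and 11.1 CPM in CP+siNAT10. The second silenced library lay just above the highest control, so the groups were barely apart. UVSSA had a log2 fold change of 0.29 with the largest standard error of the 33, 0.0891 (adjusted p = 0.00974). It did not pass without CP+siNC replicate 1 (0.25, adjusted p = 0.0565), without CP+siNAT10 replicate 1 (0.24, adjusted p = 0.0539), with DESeq2 (0.29, adjusted p = 0.0834) or with the correction for gene length (0.18, adjusted p = 0.112). ERCC8, the substrate receptor of a CUL4 ligase, was at -0.0075 (95% interval -0.15 to 0.14), and XAB2, a splicing factor that binds XPA, at -0.034 (95% interval -0.13 to 0.056).

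TFIIH unwinds DNA at promoters and around lesions. Its core holds the helicases ERCC2 and ERCC3 (XPD and XPB) and the structural subunits GTF2H1 to GTF2H5, and its kinase module holds CDK7, CCNH and MNAT1. Of these 10 genes 3 were higher, 3 were lower and 4 did not pass, so 60.0% passed against 44.1% of all genes and 60.5% of those of similar levels, and the 3 that rose are all structural core subunits. GTF2H3 (ENSG00000111358, chromosome 12 from 123633739 to 123662603), the p34 subunit, was at 19.7, 21.0 and 19.3 CPM in CP+siNC and at 27.1, 24.98 and 27.0 CPM in CP+siNAT10. All silenced libraries were well above the controls, the second being the lowest of them. It had the highest estimate among the 33 genes, 0.40 in log2 units (SE 0.0587, adjusted p = 2.29e-06), or 132% of the control mean. GTF2H3 overlaps EIF2B1 on the opposite strand, which had 349% as many counts and a log2 fold change of 0.21, and ENSG00000278861 on the same strand, which had 9.89% as many and 0.13. GTF2H1 (ENSG00000110768, chromosome 11 from 18322295 to 18366261), the p62 subunit that XPC and UVSSA bind, was at 39.7, 38.2 and 38.7 CPM in CP+siNC and at 52.5, 49.1 and 49.9 CPM in CP+siNAT10. Again every silenced library was above every control, with little spread in either group. Its log2 fold change was 0.38 (standard error 0.0456, adjusted p = 7.96e-08). GTF2H5, the small subunit that stabilises TFIIH and is mutated in a form of trichothiodystrophy, was at 11.0, 10.8 and 11.3 CPM in CP+siNC and at 14.0, 12.9 and 13.6 CPM in CP+siNAT10. The groups did not overlap and the controls were the tighter group. GTF2H5 differed by 0.29 in log2 units (SE 0.0757, adjusted p = 0.00212).

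Promoter windows of GTF2H3 and GTF2H1 are shown because these genes had the highest estimates and both windows hold the ETS letters CCGGAAG, which are in capitals on whichever strand they lie. The windows are from RefSeq (GRCh38.p14), 5′ to 3′ on the strand of the gene, from 250 bases before to 50 bases after the annotated start of transcription, and all 33 genes had one. GTF2H3 lies at chr12:123633579-123633878 on the plus strand, with matches that begin 152 and 128 bases before the start. GTF2H1 lies at chr11:18322317-18322616 on the plus strand, with a match 19 bases before the start.
GTF2H3: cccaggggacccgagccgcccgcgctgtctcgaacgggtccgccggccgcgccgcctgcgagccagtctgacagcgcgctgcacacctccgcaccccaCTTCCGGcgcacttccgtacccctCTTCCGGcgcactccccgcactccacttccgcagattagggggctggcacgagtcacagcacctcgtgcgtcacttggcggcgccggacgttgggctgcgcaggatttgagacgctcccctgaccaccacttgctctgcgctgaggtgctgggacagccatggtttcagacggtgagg
GTF2H1: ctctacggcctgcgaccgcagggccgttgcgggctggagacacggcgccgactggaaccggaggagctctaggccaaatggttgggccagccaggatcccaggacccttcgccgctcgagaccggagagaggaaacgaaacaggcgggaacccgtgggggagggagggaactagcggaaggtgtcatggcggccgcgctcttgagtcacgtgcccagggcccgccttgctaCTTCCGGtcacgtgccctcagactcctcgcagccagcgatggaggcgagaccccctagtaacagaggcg
On either strand, these letters are in the windows of 9 of the 33 genes (27.3%), in 18.6% of the windows of 11762 tested genes and in 10.7% of all 27305 windows. Of the 9 genes 3 rose, UVSSA being the other one, 0 fell in the test of edgeR and 6 did not pass, with a median log2 fold change of -0.034. Among all genes 21.8% were higher and 22.3% lower, and among those of similar levels 30.7% and 29.8%. The match is a description of the sequence, and binding there was not measured.

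The 3 TFIIH genes that fell are 2 of the kinase module and 1 helicase. CCNH, the cyclin that activates CDK7, was at 51.5, 51.2 and 51.8 CPM in CP+siNC and at 41.9, 45.9 and 44.3 CPM in CP+siNAT10. The controls were nearly equal and all silenced libraries were below them, the first being the lowest. Its log2 fold change was -0.23 (standard error 0.0449, adjusted p = 0.000139), and it overlaps RASA1 on the opposite strand, which had 85.5% as many counts and a log2 fold change of 0.24. ERCC2, the 5′ to 3′ helicase that opens and checks the lesion, fell from 43.5 ± 1.69 to 38.7 ± 0.121 CPM (SD, n = 3 per group, log2 fold change -0.17, adjusted p = 0.00320). ERCC2 overlaps KLC3 on the opposite strand, which had 94.7% as many counts and a log2 fold change of -0.082. CDK7, which phosphorylates RNA polymerase II and cell cycle kinases, moved from 51.6 ± 0.697 to 46.0 ± 5.07 CPM (SD, n = 3 per group, log2 fold change -0.17, adjusted p = 0.0145), and its groups overlapped because the first silenced library was within the range of the controls. Without that library the change was -0.25 (adjusted p = 0.000169), without CP+siNAT10 replicate 2 it was -0.098 (adjusted p = 0.169) and without CP+siNAT10 replicate 3 it was -0.15 (adjusted p = 0.0515). CDK7 also did not pass with DESeq2 (adjusted p = 0.0678), with scaling by library size only (adjusted p = 0.0643) or with the correction for gene length (adjusted p = 0.0843).

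The remaining 4 TFIIH genes did not pass. ERCC3, the translocase that pumps DNA to open the helix, was at a log2 fold change of -0.086 (95% interval -0.16 to -0.0099, adjusted p = 0.0618). It passed without CP+siNAT10 replicate 2 (-0.11, adjusted p = 0.0489), with the correction for gene length (-0.14, adjusted p = 0.00345) and among genes of at least 1 CPM in all libraries (adjusted p = 0.0433). Scaled by library size only, ERCC3 was at -0.048 (adjusted p = 0.307). GTF2H2, the p44 subunit that stimulates ERCC2, was at -0.14 (95% interval -0.29 to 0.010), and at -0.20 (adjusted p = 0.0457) without CP+siNC replicate 2. GTF2H2 was at -0.088 (adjusted p = 0.429) without CP+siNC replicate 1 and at -0.099 (adjusted p = 0.361) without CP+siNAT10 replicate 3. Its near-identical copies GTF2H2C and GTF2H2B were at -0.10 and -0.053 and had 6774 and 3766 counts in all against 2017 for GTF2H2, so reads of these genes cannot be told apart with certainty. GTF2H4, the p52 subunit, was at 0.043 (95% interval -0.081 to 0.17). It overlaps ENSG00000288473 on the same strand, which had 203% as many counts and a log2 fold change of -0.022. In GENCODE 29, 79.0% of the exon bases of GTF2H4 are also covered on the same strand. MNAT1, which assembles the kinase module, was at 0.083 (95% interval -0.034 to 0.20).

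After TFIIH has opened the helix, XPA verifies the damage and the nucleases ERCC1-ERCC4 (with ERCC4 also called XPF) and ERCC5 (XPG) cut the strand on its 5′ and 3′ sides. Of these 4 genes 1 passed, against 44.1% of all genes and 60.5% of those of similar levels. ERCC1 (ENSG00000012061, chromosome 19 from 45407334 to 45478828), the DNA-binding partner of the nuclease, was at 265, 252 and 255 CPM in CP+siNC and at 216, 211 and 216 CPM in CP+siNAT10. The silenced libraries were all clearly below the controls, and each group was tight. Its log2 fold change was -0.27 (standard error 0.0331, adjusted p = 1.38e-07), or 83.2% of the control mean. ERCC1 overlaps POLR1G on the opposite strand, which had 98.4% as many counts and a log2 fold change of -0.29, and FOSB, which had 30.1% as many and 0.25. ERCC4, the catalytic subunit, was at 16.7, 16.3 and 16.5 CPM in CP+siNC and at 14.8, 15.2 and 17.1 CPM in CP+siNAT10. The third silenced library was above all controls and the others below them, so the groups overlapped. ERCC4 had a log2 fold change of -0.065 (95% interval -0.21 to 0.079, adjusted p = 0.486). With the correction for gene length it was -0.17 (adjusted p = 0.0552). Without CP+siNAT10 replicate 3 it was -0.13 (adjusted p = 0.169), and without CP+siNAT10 replicate 1 it was -0.022 (adjusted p = 0.851). XPA was at 46.1, 45.9 and 45.8 CPM in CP+siNC and at 50.2, 45.6 and 44.1 CPM in CP+siNAT10. The controls differed by little, while the silenced libraries lay on both sides of them. XPA had a log2 fold change of 0.019 (95% interval -0.080 to 0.12, adjusted p = 0.785). ERCC5 was at 0.0014 (95% interval -0.072 to 0.075), and the readthrough gene BIVM-ERCC5, which covers 63.2% of the exon bases of ERCC5 on the same strand and had 106.8% as many counts, was at -0.049.

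The subunits ERCC1 and ERCC4 form an obligate pair, and their length-scaled counts can be compared within a library. The ERCC1 to ERCC4 ratio was 45.3, 43.9 and 44.0 in CP+siNC and 41.5, 39.3 and 35.9 in CP+siNAT10. All silenced libraries had a lower ratio, by 0.19 on the log2 scale, with an exact two-sided permutation p of 0.1, the smallest possible with 3 libraries in each group. Corrected for gene length, the groups overlapped and the difference was -0.090 (exact two-sided p = 0.3, where 0.1 is the smallest possible). In both groups the length-scaled counts of ERCC1 were in large excess over those of ERCC4. ERCC4, like ERCC1, overlaps a gene on the opposite strand. This is ENSG00000262732, which had 40.5% as many counts and a log2 fold change of -0.28. The scaling uses every annotated exon base. The part of shared reads and of rarely used exons in this ratio was not tested.

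LIG1, the replicative DNA ligase that seals repair gaps in dividing cells, was at 149.8, 148 and 145 CPM in CP+siNC and at 122, 136 and 127 CPM in CP+siNAT10. Every silenced library was below every control, the second coming nearest. For LIG1 the log2 fold change was -0.20 (SE 0.0375, adjusted p = 6.95e-05).

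In mismatch repair, MSH6 and MSH3 are alternative partners that recognise small and larger mispairs, PMS2, PMS1 and MLH3 are MutL-type partners that act next, and EXO1 removes the mispaired strand. Of these 6 genes 2 were higher, 2 were lower and 2 did not pass, so 66.7% passed against 44.1% of all genes and 60.5% of those of similar levels. EXO1 (ENSG00000174371, chromosome 1 from 241847967 to 241895148), a 5′ to 3′ exonuclease made mainly in S phase, was at 77.3, 75.7 and 76.9 CPM in CP+siNC and at 61.0, 58.1 and 58.3 CPM in CP+siNAT10. The groups were far apart relative to their spread, and all silenced libraries were below the controls. It had the lowest estimate and the smallest p of the 33 genes, -0.37 in log2 units (SE 0.0395, adjusted p = 6.86e-09), or 77.2% of the control mean. MLH3, whose product acts with endonuclease activity in repair and meiosis, was at 30.5, 30.5 and 30.0 CPM in CP+siNC and at 33.7, 35.4 and 35.3 CPM in CP+siNAT10. All silenced libraries were above the controls, and the controls were nearly equal. MLH3 differed by 0.20 in log2 units (SE 0.0489, adjusted p = 0.00133). MSH3 was at 16.4, 16.8 and 15.2 CPM in CP+siNC and at 17.0, 18.6 and 18.9 CPM in CP+siNAT10. The first silenced library lay just above the second control, and the groups were barely apart. For MSH3 the log2 fold change was 0.17 (SE 0.0679, adjusted p = 0.0403). It did not pass without CP+siNC replicate 1 (0.18, adjusted p = 0.0710), without CP+siNC replicate 3 (0.13, adjusted p = 0.196), without CP+siNAT10 replicate 2 (0.16, adjusted p = 0.106), without CP+siNAT10 replicate 3 (0.14, adjusted p = 0.156) or with DESeq2 (0.17, adjusted p = 0.204). In GENCODE 29, 6.73% of its exon bases are also covered by a tested gene on the opposite strand.

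MSH6 was at 257, 237 and 248 CPM in CP+siNC and at 235, 237 and 238 CPM in CP+siNAT10. The second control was within the narrow range of the silenced libraries, and the others were above it. MSH6 had a log2 fold change of -0.064 (95% interval -0.13 to 0.0069, adjusted p = 0.140). It was -0.10 without CP+siNC replicate 2 (adjusted p = 0.0317) and -0.17 with the correction for gene length (adjusted p = 0.000151). In the other direction, MSH6 was at -0.025 with scaling by library size only (adjusted p = 0.559) and -0.036 without CP+siNC replicate 1 (adjusted p = 0.464). PMS2, the main endonuclease subunit, fell from 34.6 ± 1.10 to 31.0 ± 1.87 CPM (SD, n = 3 per group, log2 fold change -0.16, adjusted p = 0.0171). It did not pass without CP+siNC replicate 1 (-0.15, adjusted p = 0.0621), without CP+siNC replicate 3 (-0.14, adjusted p = 0.0548), without CP+siNAT10 replicate 2 (-0.11, adjusted p = 0.133), with DESeq2 (adjusted p = 0.105) or with scaling by library size only (adjusted p = 0.0731). Its near-identical copy PMS2CL was at 0.17, and how reads were divided between them is uncertain. PMS1 was at 0.082 (95% interval -0.074 to 0.24). The MSH3 to MSH6 ratio of length-scaled counts was 0.212, 0.236 and 0.204 in CP+siNC and 0.240, 0.260 and 0.265 in CP+siNAT10. The ratio was higher in all silenced libraries, by 0.23 on the log2 scale, with an exact two-sided permutation p of 0.1, the smallest this design allows. With the correction for gene length it was 0.35 (exact two-sided p = 0.1).

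Promoter windows of EXO1, LIG1 and MSH3 are shown because they hold E2F letters while the genes moved in different directions, EXO1 and LIG1 down and MSH3 up. The capitals mark TTTCCCGC, TTTCGCGC, TTTGCCGC or TTTGGCGC, read on either strand, and the source and window are those given for TFIIH. EXO1 lies at chr1:241847954-241848253 on the plus strand, with a match 4 bases after the start. LIG1 lies at chr19:48170295-48170594 on the minus strand, with a match 114 bases before it. MSH3 lies at chr5:80654402-80654701 on the plus strand, with matches 107 and 103 bases before it that share bases with each other.
EXO1: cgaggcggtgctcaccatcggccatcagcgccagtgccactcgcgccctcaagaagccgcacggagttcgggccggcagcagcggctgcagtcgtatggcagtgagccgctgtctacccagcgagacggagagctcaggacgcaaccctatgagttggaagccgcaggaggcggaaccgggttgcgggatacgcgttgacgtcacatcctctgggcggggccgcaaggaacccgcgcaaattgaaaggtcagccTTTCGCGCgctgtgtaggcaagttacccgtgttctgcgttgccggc
LIG1: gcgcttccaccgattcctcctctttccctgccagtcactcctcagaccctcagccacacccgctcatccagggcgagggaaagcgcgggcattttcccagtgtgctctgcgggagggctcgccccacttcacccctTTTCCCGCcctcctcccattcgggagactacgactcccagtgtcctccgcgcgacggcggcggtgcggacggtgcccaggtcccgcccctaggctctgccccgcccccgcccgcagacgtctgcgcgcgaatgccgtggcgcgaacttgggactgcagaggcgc
MSH3: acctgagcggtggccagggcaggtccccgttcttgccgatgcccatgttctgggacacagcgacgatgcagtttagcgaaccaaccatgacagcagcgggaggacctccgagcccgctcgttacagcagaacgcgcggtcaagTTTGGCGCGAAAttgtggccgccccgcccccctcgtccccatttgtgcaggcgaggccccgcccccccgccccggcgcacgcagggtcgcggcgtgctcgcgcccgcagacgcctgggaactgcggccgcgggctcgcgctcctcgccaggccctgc
These letters are in the windows of 6 of the 33 genes (18.2%), in 5.30% of those of tested genes and in 3.33% of all windows. The 6 genes are EXO1, LIG1, XPC, PMS2, MSH6 and MSH3, of which 4 fell, MSH3 rose and MSH6 did not pass, where 22.3% of all genes were lower and 21.8% higher, and 29.8% and 30.7% of those of similar levels. The letters TTTCCCGC can share bases with the Sp1 letters GGGCGG, which are in 75.8% of the repair gene windows against 68.6% of those of tested genes. CCAAT was in 36.4% against 36.5%, the NRF1 letters GCGCATGC in 6.06% against 5.44% and the CRE letters TGACGTCA in 6.06% against 3.14%. The YY1 letters AAGATGGC and the p53 consensus element were in none of the 33 windows, against 5.16% and 0.0255% of those of tested genes. This says only that they are not in these 300 bases. The p53 pattern is so rare in such windows that its absence from 33 carries no information. The median GC content was 63.7% for the repair genes and 65.0% for tested genes. Occupancy by any of these factors was not measured.

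Compared per length, as RPKM over all annotated exon bases, the repair genes spanned a wide range in both groups. In CP+siNC the highest were CETN2 at 52.1, RAD23B at 48.4 and ERCC1 at 46.2 RPKM, and in CP+siNAT10 these were at 59.3, 56.6 and 38.4 RPKM. The lowest in CP+siNC were UVSSA at 0.530, ERCC8 at 0.604 and ERCC4 at 1.04 RPKM. Within the incision step XPA was at 25.3 RPKM, above ERCC5 at 8.71. In mismatch repair EXO1 and MSH6 were at 18.5 and 14.0 RPKM, and MLH3, PMS2, MSH3 and PMS1 lay between 2.19 and 3.63. The length counts every annotated exon, so genes with long, rarely used exons are understated.

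**Figure D3:**
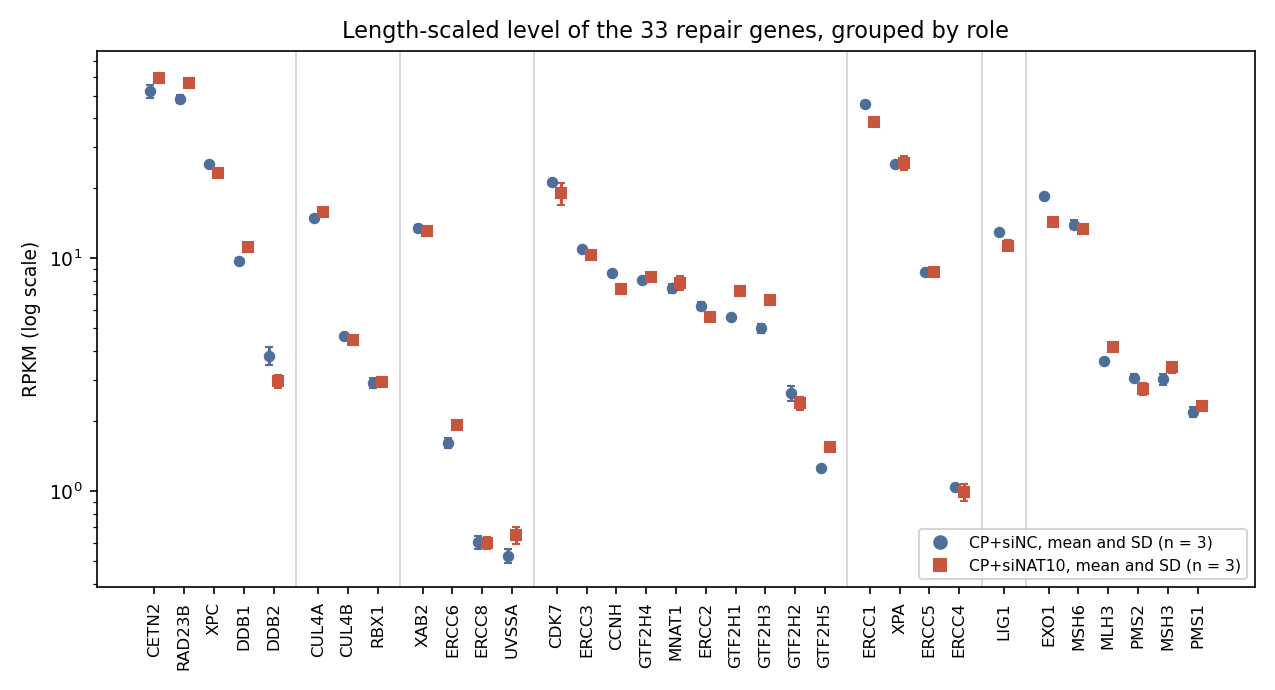
RPKM of each repair gene on a log scale, as the mean and SD of 3 libraries, with circles for CP+siNC and squares for CP+siNAT10, ordered by level within each role and with grey lines between roles. CETN2 is the highest and UVSSA the lowest in CP+siNC, and bars hidden by a symbol are smaller than it.

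Other genes of the same pathways were compared as lists. Of 20 gap filling and strand binding genes 7 were higher and 7 lower, with a median log2 fold change of -0.021, so 70.0% passed against 44.1% of all genes and 60.5% of those at the levels of the repair genes. POLE, the catalytic subunit of DNA polymerase epsilon, rose from 180.2 ± 5.40 to 233 ± 6.62 CPM (SD, n = 3 per group, log2 fold change 0.37, adjusted p = 6.1e-10). The sliding clamp gene PCNA fell (-0.28, adjusted p = 9.14e-08), and so did RPA2 (-0.28, adjusted p = 3.25e-06) and RPA3 (-0.31, adjusted p = 1.07e-05), subunits of the complex that coats single-stranded DNA. Of 22 other regulators of excision repair 5 were higher and 4 lower, or 40.9% against 44.1% of all genes, with a median of 0.025. DCAF7, which encodes an adaptor of DDB1 and ligases, had a log2 fold change of 0.48 (adjusted p = 2.31e-11). HMGN1, a nucleosome binding protein gene, and COPS5, the protease subunit gene of the COP9 signalosome that acts on CUL4 ligases, fell, with -0.28 (adjusted p = 7.35e-08) and -0.17 (adjusted p = 0.000708).

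EXO1, LIG1 and MSH6 are expressed with DNA replication, and DDB2 and XPC are induced by p53, so the levels of both programmes are given beside them. Of 22 S phase genes 4 were higher and 7 lower, or 18.2% and 31.8% against 21.8% and 22.3% of all genes, with a median of -0.057. RRM2 was at -0.73 (adjusted p = 1.01e-15), CDT1 at -0.57 (adjusted p = 7.99e-10) and TYMS at -0.22 (adjusted p = 3.1e-06), while the helicase subunit gene MCM5 was at 0.52 (adjusted p = 5.45e-10). Of 18 p53-induced genes that are not among the 33 repair genes 14 were lower and 1 higher. That is 77.8% and 5.56% against 22.3% and 21.8% of all genes, with a median of -0.26. FDXR was at -0.79 (adjusted p = 9.01e-13), GADD45A at -0.53 (adjusted p = 4.53e-12), PHLDA3 at -0.57 (adjusted p = 1.26e-09) and CDKN1A, the gene of p21, at -0.41 (adjusted p = 4.79e-09). The lower level of p53-induced genes was known from earlier results of these libraries and is no independent support for DDB2 and XPC. The part of either programme in the changes of the repair genes was not tested.

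**Figure D4:**
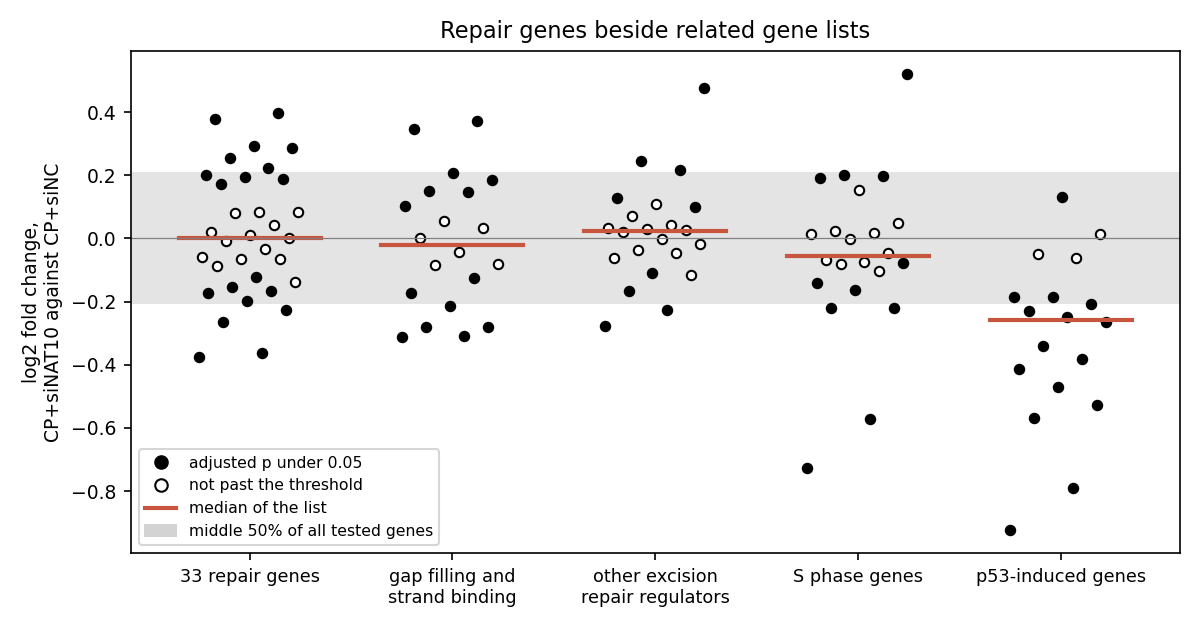
Log2 fold change of CP+siNAT10 against CP+siNC for the 33 repair genes and for the genes of 4 related lists, with filled circles at an adjusted p under 0.05, open circles for the others, a red line at each median and a grey band over the middle 50% of all tested genes. The medians are 0.0014 for the repair genes, -0.021 for gap filling, 0.025 for other regulators, -0.057 for S phase and -0.26 for p53-induced genes.

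The siRNA is a feature of every CP+siNAT10 library, and short sequences that were linked to lower mRNA in earlier results of these data were looked up. At least 1 of the heptamers GACTATC (the first), ACTATCA (the next) and CATATTC (the last) is in the longest annotated 3′ UTR of 6 of the 33 genes (18.2%), ERCC4, ERCC6, ERCC8, MNAT1, UVSSA and MLH3, against 17.3% of 13080 tested protein-coding genes. The median log2 fold change of the 6 was 0.14, against -0.034 for the other repair genes, while over all protein-coding genes it was -0.082 with and 0.031 without a match. None of the 9 repair genes that fell holds any of them, but at a share of 17.3% few of 9 genes would. The siRNA sequence is not given in the sources used here, and the part of these heptamers in the changes was not tested. An effect of the siRNA sequence and an effect of lower NAT10 cannot be told apart with these groups.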

How the data were processed

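Per the labels, RNA of Cisplatin-treated HK-2 cells was sequenced in 2 groups of 3 libraries. The authors deposited raw counts per gene. Their processing notes name Trimmomatic 0.36, STAR 2.5.3a, featureCounts (Subread 1.5.1), edgeR 3.12.1 and GRCh38. Libraries held molecular identifiers, and whether these were merged, the strand setting and the annotation are not given in the sources used here. Counts were analysed with edgeR 4.0.16, limma 3.58.1 and R 4.3.3. The filter filterByExpr, at its minimum count of 10 and minimum total of 15, left 19874 genes with 99.8% of counts. TMM scaling, glmQLFit and glmQLFTest were followed by Benjamini-Hochberg adjustment over these genes. Intervals are per gene and unadjusted. Ratios were compared by exact permutation tests. Overlaps and 3′ UTRs came from the table and GENCODE 29, promoters from RefSeq (GRCh38.p14). Methods were tested on simulated data. The members and lists were chosen with earlier results of these data known. Values by library are given for the 12 largest changes that passed without overlap, and for XPC, XPA, ERCC4, MSH6, MSH3 and NAT10. Up to 4 genes per other list, those with the smallest p, are named. Genes beyond this rule are neighbours and copies. Alternatives were RLE, upper quartile and library size scaling, no filter, at least 1 CPM in all libraries, a replicate block, the exact test, DESeq2 1.42.0, glmTreat, a correction for gene length and leaving out each library. The length correction of the ratios and the counts without heptamer carriers were added after seeing the data. Plots were drawn with matplotlib 3.10.9.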

Additional observations from a re-analysis of the deposited data

How the results depend on the processing

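Of the 19 repair genes that passed, 14 kept their call in all 15 alternatives other than glmTreat, which asks for a change beyond 1.2-fold, and no gene that passed changed sign in any. CDK7, MSH3, PMS2, UVSSA and XPC lost it in at least 1, and CUL4A, CUL4B, ERCC3, GTF2H2 and MSH6 gained one in at least 1. With glmTreat 3 genes passed, 2 higher and 1 lower, or 9.09% against 14.6% of all genes. Without genes that overlap or have near-identical copies 14 genes were left, of which 10 passed, 8 higher and 2 lower. Their median log2 fold change was 0.18. Of the 7991 tested genes with no overlapping tested gene, 24.4% were higher and 24.1% lower. The cause of the shift among the repair genes was not tested. DESeq2 called 15, 8 higher and 7 lower, or 45.5% against 30.5% of all genes and 48.2% of those of similar levels.

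Leaving out each library in turn, the number that passed ranged from 16 to 21, or 48.5% to 63.6%, against 38.4% to 40% of all genes and 55.2% to 57.1% of those of similar levels, those higher from 8 to 10, those lower from 8 to 11, and the median log2 fold change from -0.012 to 0.013. NAT10 ranged from -0.85 to -0.80. The log2 differences of the ratios ranged from 0.19 to 0.30 for MSH3 to MSH6, from -0.17 to -0.11 for CUL4B to CUL4A and from -0.24 to -0.14 for ERCC1 to ERCC4. Corrected for gene length, an alternative chosen after seeing the data, they were 0.35, -0.25 and -0.090, and the last had an exact two-sided p of 0.3, where 0.1 is the smallest possible. Leaving out the 6 genes with a heptamer match, chosen after seeing the data, 16 of 27 passed, 7 higher and 9 lower, against 44.1% of all genes and 60.5% of those of similar levels, and the median was -0.034.

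Whether the replicate numbers pair the samples is not stated in the labels. The correlations of same-numbered libraries' deviations from their group means were -0.042, 0.011 and -0.14. Libraries with different numbers gave -0.11 to 0.15. With 3 libraries in each group these values cannot settle whether a pairing exists. With the replicate number as a block 19 genes passed, 10 higher and 9 lower. That is 57.6% against 42.9% of all genes and 59.7% of those of similar levels. The median was 0.0013 and NAT10 was at -0.83. The blocked ratio differences were 0.23, -0.14 and -0.19, each with an exact sign-flip p of 0.25, the smallest possible. Depth limits the genes with few counts most, such as UVSSA and RBX1.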
